A study of Mus musculus with 54 samples.

Results

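The genes described here are 10 cytokine and receptor genes of the interleukin 6, 10, 12 and 15 axes, namely the cytokine subunits Il6, Il12b, Il27, Ebi3, Il15 and Il10 and the receptor chains Il6ra, Il15ra, Il10ra and Il10rb. They were taken by symbol from the count tables, which listed 33280 gene symbols, and all 10 were present. Levels are given as CPM (reads of a gene scaled to a common library size, here with factors from the trimmed mean of M values, TMM), and as mean ± SD over the 3 libraries of a group.

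Interleukin 6 binds its receptor chain Il6ra and signals through the shared chain Il6st, and interleukin 10 uses Il10ra together with Il10rb. Il12b encodes the subunit shared by interleukins 12 and 23, and Ebi3 pairs with the Il27 product to form interleukin 27. Interleukin 15 is shown to neighbouring lymphocytes on the surface of the cell that makes it, bound to Il15ra, and macrophages are a classical source of all of these cytokines when they sense bacterial endotoxin.

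Brains without choroid plexus were used to sort microglia (MG), the macrophages of the parenchyma, and subdural CNS-associated macrophages (sdCAMs), those of the leptomeninges and perivascular spaces. Wild-type (WT) and Ccr2 knockout (Ccr2-/-) mice each gave MG and sdCAMs under 3 conditions, which were no treatment with PBS, vehicle (CTL) with lipopolysaccharide (LPS), and the CSF1 receptor inhibitor BLZ945 with LPS. Ccr2CreERT2/CreERT2:R26tdT/tdT reporter mice (Ccr2Cre) all received BLZ945 and tamoxifen, 2 mg on 3 occasions, and after LPS or PBS gave MG and sdCAMs with (tdT+) or without (tdT-) the tdTomato reporter. Injection took place 8 weeks after treatment and sorting 12 h after injection, and each of the 18 groups held 3 libraries from different mice.

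Several features limit the groups as models. The tdT label marks cells, and their progeny, that expressed Ccr2 when tamoxifen was given, and it says nothing of cells that expressed Ccr2 at other times. Untreated WT and Ccr2-/- mice with PBS received no vehicle, so their LPS comparisons also contrast CTL with no treatment. The Ccr2Cre libraries had a batch label of their own, so batch and mouse line cannot be told apart. Ages were not used here.

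Ccr2, the targeted gene, lay at 16.7 to 49.9 CPM in untreated WT sdCAMs and at 2.36 to 5.28 CPM in untreated Ccr2-/- sdCAMs. After CTL with LPS it was at 0 to 0.715 CPM in WT and 3.12 to 5.49 CPM in Ccr2-/- sdCAMs, and MG of both genotypes overlapped, so these libraries are called WT or Ccr2-/- by their labels only. Library totals ran from 1705930 to 11330781 counts. Summed MG markers lay at 7179 to 42157 CPM in MG and at 345 to 9880 CPM in sdCAM libraries, whereas summed sdCAM markers stayed between 0.253 and 23 CPM in MG and between 516 and 23524 CPM in sdCAMs. The tdT+ library of mouse 5 after LPS stood apart, with MG markers at 9661 CPM against 603 and 698 CPM in the other tdT+ libraries after LPS, and sdCAM markers at 516 CPM against 3006 and 3859 CPM. The MG library of Ccr2Cre mouse 175 detected 10815 genes, the fewest of all. Columns of the tdT- library of mouse 1 and the tdT+ library of mouse 7, both after LPS, carried each other's sequencing index. Levels and marker sums of these 2 libraries are given as named unless stated. Member calls that were lost when the 2 columns were exchanged are reported with that result. The 10 most abundant genes took 28.3% to 46.7% of the counts of tdT- sdCAMs after LPS and 12% to 53.3% of those of WT sdCAMs after LPS, where the lowest TMM factor was 0.364.

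Before LPS, Il10ra and Il6ra were the most abundant members in MG and sdCAMs of WT mice. To compare genes, CPM was divided by the summed exon length of each gene (GENCODE M21, GRCm38), giving CPM per kilobase. In untreated WT MG this stood at 206 for Il10ra and 29 for Il6ra, but at 13.5 for Il15, 4.97 for Il6, 3.93 for Il10rb, 3.69 for Il15ra and 3.41 for Il27. Ebi3, at 14.1, lay beside Il15. Il12b was at 0.901 and Il10 at 0. In untreated WT sdCAMs the order again opened with Il10ra at 77.7 and Il6ra at 38.9, followed by Ebi3 at 21.9 and Il15 at 15.6. Il10rb stood at 4.58, Il15ra at 1.18, Il6 at 0.447, Il10 at 0.291 and Il27 at 0.124, and Il12b was at 0. Neighbours such as Ebi3 and Il15 differed by less than the spread between libraries, since Ebi3 ran from 12.1 to 34.7 CPM and Il15 from 9.14 to 51.8 CPM in those sdCAMs.

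**Figure D1:**
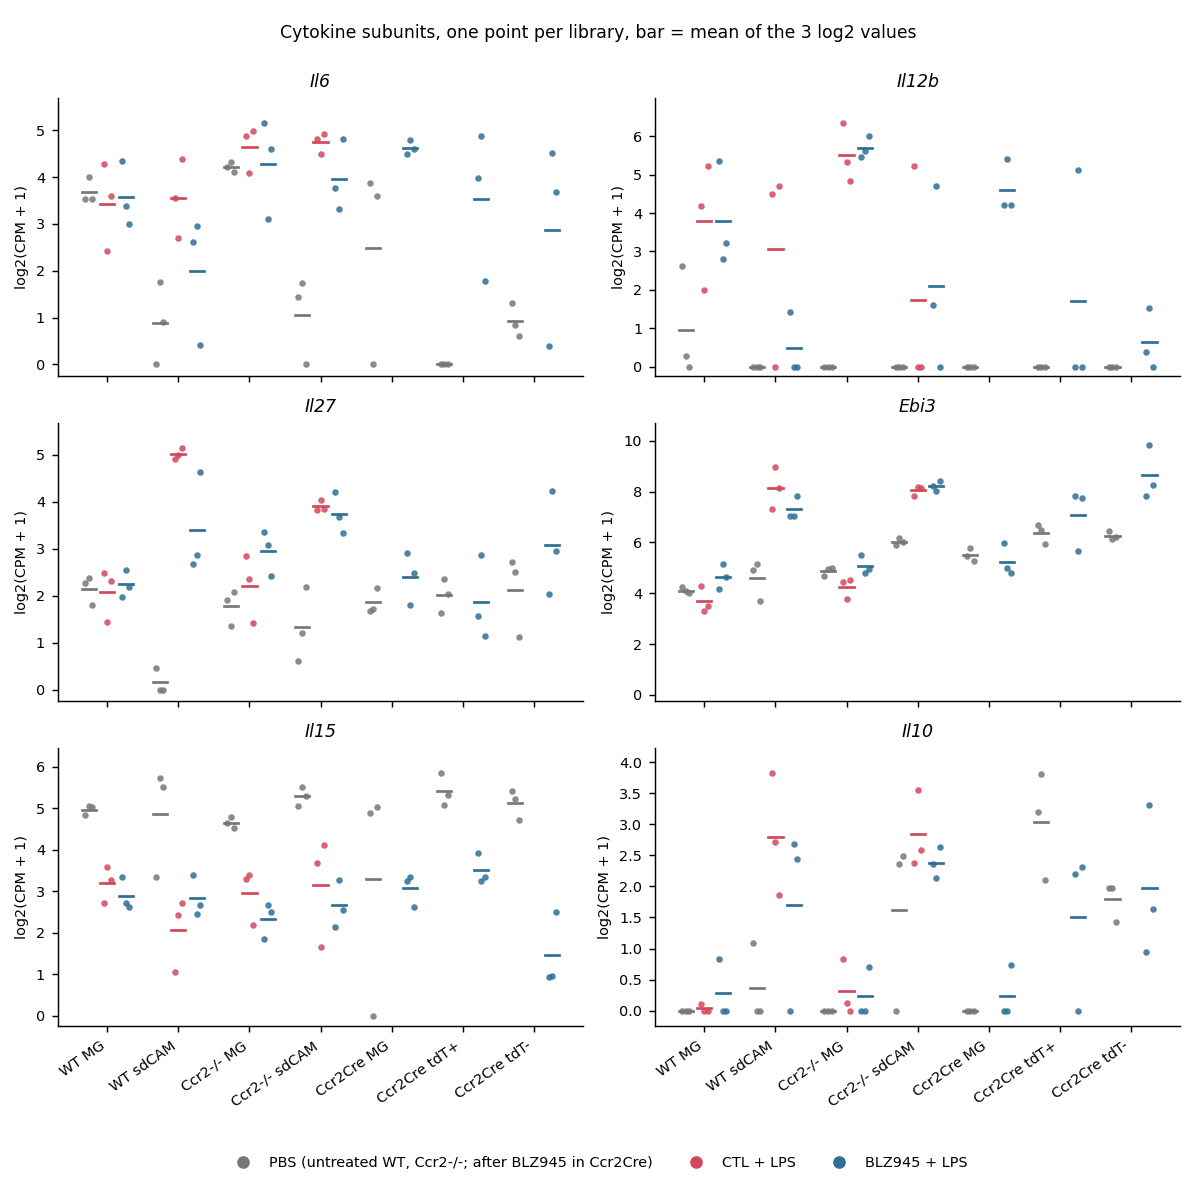
Levels of the 6 cytokine subunits in all 54 libraries, as log2(CPM + 1) on the vertical axis, by sorted population on the horizontal axis. Points are libraries, bars are means of the 3 log2 values, grey is PBS, red CTL with LPS and blue BLZ945 with LPS. Il15 lay lower after LPS in most populations, Ebi3 and Il27 higher in WT and Ccr2-/- sdCAMs, and Il12b higher in MG.

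LPS was compared with PBS in 7 populations, with CTL as the treatment in WT and Ccr2-/- mice and BLZ945 on both sides in Ccr2Cre mice. Calls required an adjusted p under 0.05 (edgeR quasi-likelihood test, Benjamini-Hochberg over all genes tested) and a log2 change over 1. Of the members that passed the low-count filter, 3 of 9 were called in WT MG, where 16.7% of all tested genes were called. In WT sdCAMs the count was 3 of 8, against 6.32% of all genes, in Ccr2-/- MG 3 of 9, against 19.4%, and in Ccr2-/- sdCAMs 6 of 10, against 21.5%. In Ccr2Cre mice the counts were 2 of 9 in MG, against 1.08%, 4 of 9 in tdT+ sdCAMs, against 13.4%, and 6 of 9 in tdT- sdCAMs, against 26.5%. The member median of log2 changes lay between -0.21 and 1.68, and that of all genes between -0.075 and 0.0399. Here, as in all sorted bulk samples, fewer cells of a type and less RNA per cell cannot be told apart.

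Markers listed for other cells moved with LPS in all 4 sdCAM populations. Summed neutrophil markers (6 genes) went from a range of 0 to 92.1 CPM to 342 to 3135 CPM in WT, from 0.918 to 2.55 CPM to 77.9 to 128 CPM in Ccr2-/-, from 0 to 1.39 CPM to 16.3 to 69 CPM in tdT+ and from 0 to 4.4 CPM to 580 to 2277 CPM in tdT- sdCAMs. Ly6g and Retnlg, the defining markers, were at 0 in all these libraries. With the 2 conflicting columns exchanged, the 2277 CPM of mouse 1 would count as tdT+ and the 46 CPM of mouse 7 as tdT-. The neutrophil ranges of tdT+ and tdT- cells after LPS would then overlap. Markers of monocytes and dendritic cells (7 genes) moved the other way, from a range of 145 to 225 CPM to 21.8 to 88 CPM in WT, from 438 to 642 CPM to 79.4 to 169 CPM in Ccr2-/-, from 337 to 369 CPM to 18.6 to 52.4 CPM in tdT+ and from 563 to 842 CPM to 22 to 82.2 CPM in tdT- sdCAMs. These genes include Ccr2, which the paper lists for sdCAMs of blood stem cell origin, so the sums do not mark other cells alone. Ccr2 lay at 233 to 284 CPM in tdT+ and 144 to 197 CPM in tdT- sdCAMs after PBS. Ly6c2 was at 0 in tdT+ sdCAMs after PBS, and Ly6c2 and Plac8 in untreated Ccr2-/- sdCAMs. In tdT- sdCAMs, oligodendrocyte markers (3 genes) went from 48.5 to 65.1 CPM to 262 to 347 CPM and neuron markers (3 genes) from 8.08 to 17.7 CPM to 60.3 to 124 CPM, without overlap. With the columns exchanged, the 300 and 124 CPM of mouse 1 would count as tdT+. The 69.8 and 46.6 CPM of mouse 7 would then count as tdT-. The part of any of these in the sdCAM results was not tested.

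**Figure D2:**
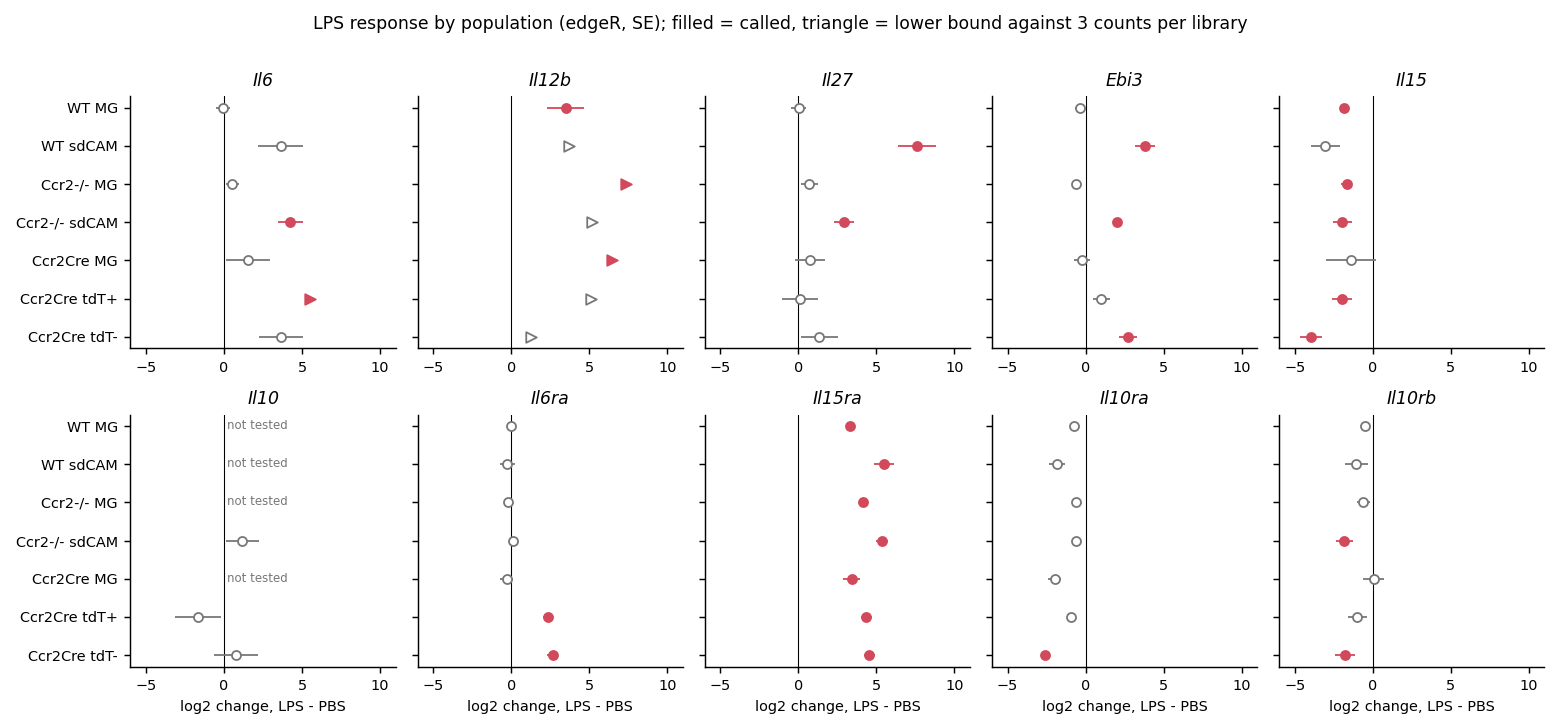
LPS response of each member in 7 populations. The horizontal axis is the log2 change (LPS minus PBS) with its SE from edgeR, filled symbols are called, and triangles are lower bounds where the PBS libraries held no count. Il15ra lay right of 0 in all 7 populations and Il15 left of 0 in all 7, with calls in 7 and 5 of them. The Il27 value of WT sdCAMs rests on 1 count in the untreated libraries and is no bound.

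Promoter sequence is shown for Il6, Ebi3 and Il15ra, members called after LPS with a match to a kappaB, IRF or AP-1 motif in the printed window. The windows of Il12b and Il6ra, which were also called, and of the other Il15ra start were searched but are not printed. RefSeq windows (GRCm38.p6) from 250 bases before to 50 bases after the start were held for 5 of the 10 members, Il6, Il12b, Ebi3, Il6ra and Il15ra, the last with a pair of windows. Each was searched on both strands for a kappaB motif (GGG, NN, TT, N and CC in a row), an IRF motif (GAAANNGAA), an AP-1 motif (TGANTCA) and a C/EBP motif (TTGNGNAA). Capitals mark the matches, and all sequences read 5′ to 3′ on the strand of the gene.
Il6, chr5:30012864-30013163, plus strand: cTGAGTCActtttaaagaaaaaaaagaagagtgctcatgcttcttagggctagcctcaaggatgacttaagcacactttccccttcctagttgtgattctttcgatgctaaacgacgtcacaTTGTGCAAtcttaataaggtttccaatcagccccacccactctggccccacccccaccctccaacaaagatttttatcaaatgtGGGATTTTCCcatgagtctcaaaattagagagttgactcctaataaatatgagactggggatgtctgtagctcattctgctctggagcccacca
Ebi3, chr17:55952373-55952672, plus strand: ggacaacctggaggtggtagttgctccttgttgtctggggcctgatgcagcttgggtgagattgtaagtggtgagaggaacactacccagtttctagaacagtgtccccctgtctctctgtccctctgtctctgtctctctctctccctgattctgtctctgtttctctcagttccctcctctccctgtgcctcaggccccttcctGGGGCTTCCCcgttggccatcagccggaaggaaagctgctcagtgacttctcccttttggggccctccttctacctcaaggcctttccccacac
Il15ra, chr2:11705462-11705761, plus strand: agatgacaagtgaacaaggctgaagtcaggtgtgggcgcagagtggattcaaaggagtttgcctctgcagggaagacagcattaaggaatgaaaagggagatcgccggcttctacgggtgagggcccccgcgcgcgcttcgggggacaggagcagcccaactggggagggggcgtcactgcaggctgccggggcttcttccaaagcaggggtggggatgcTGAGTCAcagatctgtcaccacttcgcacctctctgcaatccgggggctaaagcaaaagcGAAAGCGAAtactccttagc
In Il6 the AP-1 match began at base -249, the C/EBP match at -128 and the kappaB match at -44. Ebi3 held a kappaB match that began at -44. The Il15ra window had an AP-1 match from -30 and an IRF match from 31, while the window of the other Il15ra start held an IRF match only. Il6ra had a C/EBP match, and no match was found in the Il12b window. No 2 of the matches overlapped. Of all 32851 windows of this length, 4.79% held the kappaB motif, 8.56% the IRF motif, 7.81% the AP-1 motif and 13.3% the C/EBP motif. A match describes letters, not binding.

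Il6, the acute-phase cytokine of the family, was present in MG without LPS and nearly absent from sdCAMs. In untreated WT mice, MG held 10.5, 15.1 and 10.5 CPM and sdCAMs 0, 2.39 and 0.865 CPM, without overlap. In Ccr2-/- mice, MG held 16.2 to 18.9 CPM and sdCAMs 0 to 2.36 CPM. The difference, sdCAMs minus MG, was -3.38 ± 1.03 (log2, SE, adjusted p = 0.0319, edgeR) in WT and -3.68 ± 0.703 (adjusted p = 6.44e-04) in Ccr2-/- mice. Il6 was at 0 counts in all 3 tdT+ libraries after PBS, where MG held 13.6 and 11.1 CPM but also 0 in mouse 175, so these groups overlapped. The tdT+ difference from MG was called (adjusted p = 0.0135, edgeR), but not without the tdT+ library of mouse 174 (adjusted p = 0.0506). The WT call was lost when any of 5 single libraries was left out, namely the sdCAM libraries of mice 9 and 15 or the MG libraries of mice 9, 14 and 15. It was also lost (adjusted p = 0.368) with a covariate for the IEG mark, which the labels give, unexplained, to 6 WT sdCAM libraries.

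After LPS, Il6 was called higher in Ccr2-/- and tdT+ sdCAMs and in no MG population. WT MG lay at 18.5, 4.38 and 11 CPM, with a change of -0.06 ± 0.472 (adjusted p = 0.933, edgeR). Ccr2-/- MG held 28.5, 15.9 and 30.6 CPM, a difference of 0.54 ± 0.404 (adjusted p = 0.33). Ccr2Cre MG held 21.4, 26.7 and 23.2 CPM, each above every PBS library, and the difference of 1.53 ± 1.43 did not pass (adjusted p = 0.755). Ccr2-/- sdCAMs lay at 27.2, 21.5 and 29.2 CPM, again above every PBS library, and rose by 4.25 ± 0.812 on the log2 scale (adjusted p = 0.00173). WT sdCAMs lay at 10.7, 5.53 and 19.8 CPM, also above all PBS libraries, but their difference of 3.62 ± 1.44 did not pass (adjusted p = 0.146). It was called under 2 of 14 alternatives, DESeq2 and 18 libraries in the fit. In tdT+ sdCAMs Il6 rose from 0 counts to 14.7, 28.2 and 2.44 CPM, a mean at least 45.6-fold above a floor of 3 counts per library. Mouse 5, at 28.2 CPM, was the library with MG markers at 9661 CPM, and the part of MG in this value was not tested. With the conflicting columns exchanged, 0.31 CPM would stand in place of 2.44 CPM, and the rise was called under all 15 alternatives, the exchange among them. In tdT- sdCAMs Il6 held 0.31, 21.9 and 11.8 CPM against 0.531 to 1.47 CPM, a difference of 3.65 ± 1.42 that did not pass (adjusted p = 0.0726). This difference was called under 3 of 15 alternatives, DESeq2, omission of mouse 1 (4.18, adjusted p = 0.0255) and omission of both conflicting libraries. The LPS response of Il6 was larger in sdCAMs than in MG of Ccr2-/- mice by 3.74 ± 0.907 (interaction, adjusted p = 0.0133). In WT mice that interaction was 3.65 ± 1.34 (adjusted p = 0.161), and it was called under 1 of 19 alternatives, DESeq2 (adjusted p = 0.0347).

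Il12b, the shared subunit of interleukins 12 and 23, was called higher after LPS in all 3 MG populations and in no sdCAM population. Untreated Ccr2-/- MG had 0 counts in all 3 libraries and LPS libraries held 80, 39.3 and 27.4 CPM, at least 163-fold more. Ccr2Cre MG went from 0 counts to 17.4, 41.7 and 17.5 CPM, at least 88.3-fold more. These are called rises (adjusted p = 6.66e-07 and 0.0414, edgeR), the latter lost without any single library of that comparison but that of mouse 175. WT MG held 17, 3.01 and 36.4 CPM after LPS and 5.11, 0.208 and 0 CPM before, so the groups overlapped through mouse 9. The WT rise of 3.49 ± 1.19 passed (adjusted p = 0.0434), but not without mouse 6, 14 or 15 (adjusted p = 0.173, 0.135 and 0.124), with DESeq2 (0.0999), with the 6 compared libraries only (0.0606) or with 18 libraries in the fit (0.285), and it was 7.47 without mouse 9.

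In sdCAMs, Il12b was present in some libraries of a group and at 0 in others. It was at 0 counts in all 12 sdCAM libraries given PBS. After CTL with LPS it lay at 21.4, 0 and 25.1 CPM in WT sdCAMs and at 36.4, 0 and 0 CPM in Ccr2-/- sdCAMs, the high one being mouse V1m. The WT libraries thus overlapped with WT MG, and the difference, sdCAMs minus MG after LPS, was -0.08 ± 1.4 (adjusted p = 0.97, edgeR) in WT and -2.01 ± 1.46 (adjusted p = 0.346) in Ccr2-/- mice. After BLZ945 with LPS, Ccr2-/- sdCAMs held 2.06, 25.1 and 0 CPM and WT sdCAMs 1.69, 0 and 0 CPM. The library of mouse V1m held the lowest MG marker sum of its group, 1069 CPM against 1389 and 1518 CPM. Mouse B3m, the Ccr2-/- library at 25.1 CPM after BLZ945, held the highest of its group, 1869 CPM against 1860 and 1731 CPM. In WT sdCAMs after CTL with LPS, MG marker sums were 926, 1657 and 1975 CPM where Il12b lay at 21.4, 0 and 25.1 CPM. The part of MG in these Il12b values was not tested. Among tdT+ sdCAMs after LPS, the 34 CPM of mouse 5 stood against 0 in mice 1 and 7, and this is the library with MG markers at 9661 CPM. No sdCAM group was called for Il12b, and in WT and both reporter populations it did not pass the filter. Without the filter it was called in WT (adjusted p = 0.00446), Ccr2-/- (4.17e-12) and tdT+ sdCAMs (0.00579).

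Il27 and Ebi3, the partners of interleukin 27, both rose in sdCAMs of WT and Ccr2-/- mice and were not called in MG. In WT sdCAMs, Il27 lay at 0.381, 0 and 0 CPM without LPS, a single count in 3 libraries, and at 28.9, 31 and 34.4 CPM after it. The ratio of LPS to untreated was 237 (95% exact interval 42 to 9383, counting error only), and the rise was called (adjusted p = 0.00741, edgeR). Ccr2-/- sdCAMs went from 0.532, 1.3 and 3.56 CPM to 13.1, 15.4 and 13.4 CPM, a rise of 2.95 ± 0.641 on the log2 scale (adjusted p = 0.00398). Ebi3 in WT sdCAMs went from 28.9, 34.7 and 12.1 CPM to 157, 500 and 281 CPM, and in Ccr2-/- sdCAMs from 59, 71 and 63 CPM to 226, 289 and 281 CPM. Neither pair of groups overlapped, and the rises were 3.79 ± 0.645 (adjusted p = 0.00986) and 2.04 ± 0.17 (adjusted p = 2.22e-06). All 4 rises were called under every alternative tried, each with 13 or 15 fits.

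In MG the same genes showed no call. Il27 held 3.8, 4.17 and 2.47 CPM in untreated WT MG and 4.58, 1.73 and 3.94 CPM after LPS, with a difference of 0.01 ± 0.477 (adjusted p = 0.991, edgeR). Ebi3 lay at 14.9 to 18 CPM untreated and at 8.76 to 18.5 CPM after LPS, a difference of -0.35 ± 0.319 (adjusted p = 0.442). The LPS response of Ebi3 was larger in sdCAMs than in MG by 4.03 ± 0.688 in WT (adjusted p = 0.0067) and by 2.66 ± 0.309 in Ccr2-/- mice (adjusted p = 1.42e-05). For Il27 the interaction passed in WT (adjusted p = 0.00506) but not in Ccr2-/- mice (2.28 ± 0.852, adjusted p = 0.118), unless the sdCAM library of mouse 5f was left out (3.21, adjusted p = 0.0261). Without LPS, Il27 was the lower one in WT sdCAMs, 1 count against 102 in MG, a ratio of 25.5 in favour of MG (interval 4.48 to 1018).

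In reporter sdCAMs Il27 was not called, and whether its response differed from that of WT or Ccr2-/- sdCAMs was not tested. It held 1.98, 6.34 and 1.22 CPM in tdT+ cells after LPS against 2.08 to 4.11 CPM, and 3.1, 17.7 and 6.77 CPM in tdT- cells against 1.17 to 5.57 CPM, differences of 0.09 ± 1.15 and 1.34 ± 1.17 (adjusted p = 0.974 and 0.42, edgeR). Ebi3 rose in tdT- cells from a range of 70.1 to 86.9 CPM to 227, 921 and 301 CPM, by 2.73 ± 0.573 (adjusted p = 0.00238, edgeR), and all 15 alternatives kept the call. In tdT+ cells Ebi3 went from a range of 60.7 to 102 CPM to 226, 49.3 and 215 CPM, overlapping through mouse 5, and the difference of 1.01 ± 0.545 did not pass (adjusted p = 0.244).

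Il15, the cytokine that sustains NK and memory T cells, was called lower after LPS in 5 of 7 populations, more than any other member. In WT MG it went from 27.5, 32.1 and 31.8 CPM to 5.57, 11.1 and 8.74 CPM, a fall of -1.82 ± 0.294 (log2, adjusted p = 8.50e-04, edgeR). Ccr2-/- MG fell by 1.68 on the log2 scale (22 to 26.8 CPM before, 3.6 to 9.6 CPM after, adjusted p = 0.00277). Ccr2-/- sdCAMs fell from 32.5 to 44.5 CPM to 2.15 to 16.4 CPM, by 1.94 (adjusted p = 0.0254). In tdT- sdCAMs Il15 fell from 41.9, 36.4 and 25.2 CPM to 0.93, 0.942 and 4.66 CPM, and in tdT+ sdCAMs from 56.6, 32.9 and 39.2 CPM to 14.3, 8.45 and 9.14 CPM. These falls were -3.97 ± 0.709 (adjusted p = 6.62e-04) and -1.98 ± 0.627 (adjusted p = 0.0477).

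WT sdCAMs and Ccr2Cre MG were not called for Il15. WT sdCAMs lay at 9.14, 51.8 and 44.6 CPM before and at 1.07, 4.43 and 5.54 CPM after LPS, without overlap, and their difference of -3.04 ± 0.921 had an adjusted p of 0.0716 (edgeR), and it was called under 5 of 15 alternatives, DESeq2 among them (adjusted p = 0.00742). Ccr2Cre MG held 28.6, 0 and 31.8 CPM after PBS, the 0 being mouse 175, and 8.54, 9.15 and 5.13 CPM after LPS, a difference of -1.40 ± 1.58. The tdT+ call was lost without any single one of its 6 libraries (adjusted p = 0.0657 to 0.159), with the 2 conflicting columns exchanged (-2.41, adjusted p = 0.0932) or left out (-1.90, adjusted p = 0.0985), and under 3 other alternatives, so that 4 of 15 kept it. The Ccr2-/- sdCAM call was lost without mouse 3m, 5f or V1m (adjusted p = 0.075, 0.0621 and 0.0596), and the tdT- call when the 2 columns were exchanged (-2.76, adjusted p = 0.0541).

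Il10, the main cytokine that restrains macrophage activation, was near its detection limit and found mostly in sdCAMs. MG held 0 counts in all 9 libraries given PBS and at most 10 counts after LPS. Ccr2-/- sdCAMs held 0, 4.13 and 4.59 CPM without LPS, a mean at least 9.67-fold above the MG floor although mouse 1m overlapped with MG at 0, and 4.18, 10.7 and 5 CPM after it. tdT+ sdCAMs after PBS held 8.2, 13 and 3.31 CPM, at least 28.3-fold above the MG floor. Cell type calls were made in these PBS groups (adjusted p = 0.0137 and 0.0245, edgeR), the latter not with the mouse as a block (adjusted p = 0.0648). It was also lost without any single MG library, of mouse 174, 175 or 177, or the tdT+ library of mouse 175.

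After LPS, WT sdCAMs held 13.2, 5.53 and 2.62 CPM of Il10 and WT MG a single count in 3 libraries, a ratio of 247 (exact interval 42.4 to 9957). The difference was called (adjusted p = 0.0141, edgeR), and lost without the MG library of mouse 4 or 6 (adjusted p = 0.0658 and 0.0665). In Ccr2-/- mice it was 4.43 ± 1.55 (adjusted p = 0.0424) and was lost when any of 5 of the 6 libraries was left out, all but the MG library of mouse V1m (adjusted p = 0.0555 to 0.141). LPS itself gave no call for Il10. Ccr2-/- sdCAMs differed by 1.18 ± 1.08 (adjusted p = 0.471), tdT+ sdCAMs by -1.68 ± 1.46 (adjusted p = 0.493) and tdT- sdCAMs by 0.75 ± 1.42 (adjusted p = 0.73). WT sdCAMs and all MG did not pass the filter, and the WT sdCAM counts were 3 before and 51 after LPS, a ratio of 17.7 (interval 5.73 to 88.7).

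**Figure D3:**
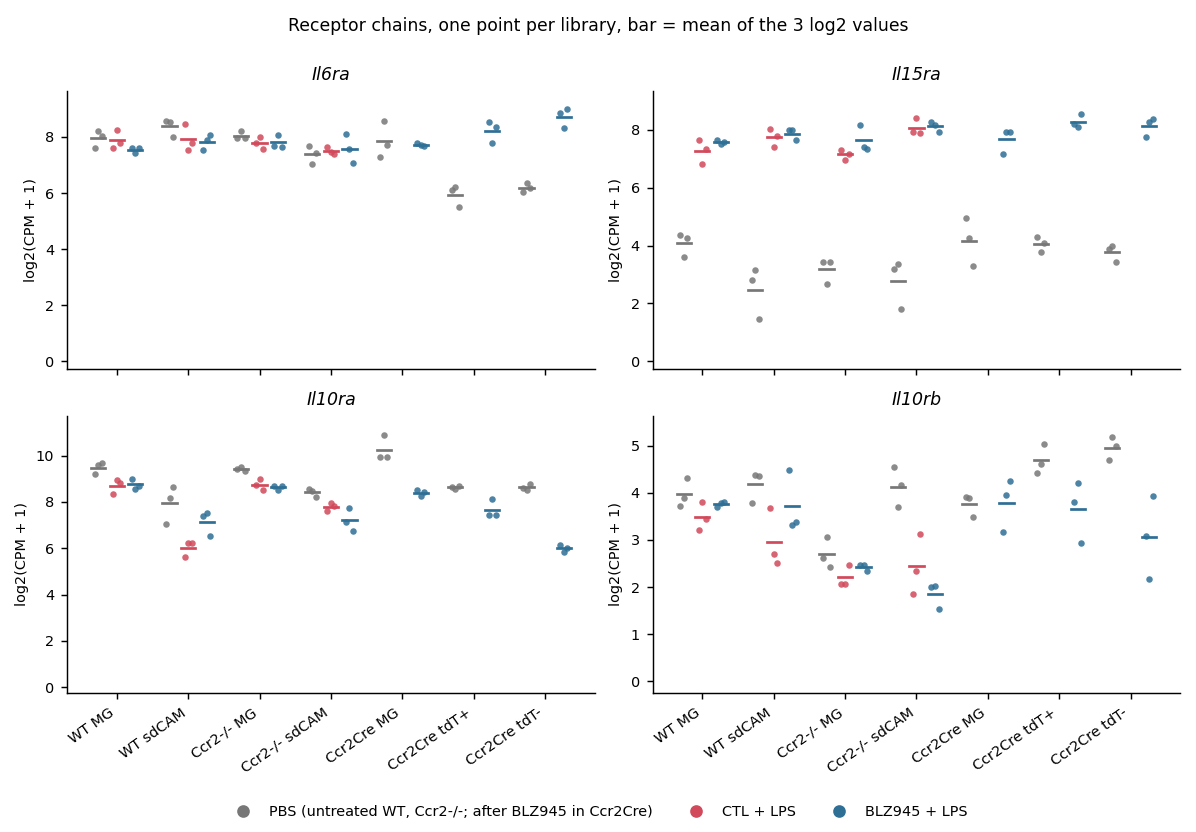
Levels of the 4 receptor chains in all 54 libraries, as log2(CPM + 1), by population. Colours, points and bars are grey for PBS, red for CTL with LPS and blue for BLZ945 with LPS, one point per library and a bar at the mean of the 3 log2 values. Il15ra rose after LPS in every population and Il6ra in Ccr2Cre sdCAMs, and the means of Il10ra lay lower after LPS than after PBS.

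Il15ra, the chain that presents interleukin 15, rose in all 7 populations, while the cytokine it carries was called lower in 5 of 7. WT MG went from 19.8, 11.2 and 18.3 CPM to 201, 112 and 160 CPM, and WT sdCAMs from 6.09, 7.97 and 1.73 CPM to 257, 168 and 220 CPM. No PBS library of any population exceeded 30.1 CPM and no LPS library lay under 112 CPM. The rises were 3.29 ± 0.256 in WT MG (adjusted p = 4.65e-06, edgeR) and 5.49 ± 0.633 in WT sdCAMs (adjusted p = 0.00181). In Ccr2-/- mice they were 4.13 ± 0.275 in MG and 5.36 ± 0.381 in sdCAMs, and among Ccr2Cre cells 3.42 ± 0.552 in MG, 4.34 ± 0.347 in the tdT+ and 4.53 ± 0.35 in the tdT- population. The rise was called under every alternative in 6 populations. In Ccr2Cre MG it was lost without mouse 1, 5, 7, 174 or 177 (adjusted p = 0.0944 to 0.237), a comparison in which 118 genes were called in all. Untreated WT sdCAMs held less Il15ra than MG (difference -1.54 ± 0.431, adjusted p = 0.0215), a call lost without the MG library of mouse 9 or 15. The interaction of cell type and LPS in WT mice did not pass (2.13 ± 0.581, adjusted p = 0.0768). It was called under 3 of 19 alternatives, DESeq2, no filter and the IEG mark as a covariate. In Ccr2-/- mice the interaction was not called either, except under 2 of 18 alternatives, DESeq2 and no filter.

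Il6ra, the binding chain for interleukin 6, rose only in the reporter sdCAMs among the 7 comparisons. In tdT+ cells it went from 68.2, 73.5 and 43.9 CPM to 373, 220 and 323 CPM, and in tdT- cells from 64.6, 80.7 and 71.5 CPM to 467, 317 and 510 CPM. The rises were 2.34 ± 0.333 (adjusted p = 3.84e-04, edgeR) and 2.65 ± 0.337 (adjusted p = 3.94e-05), and all 15 alternatives of each kept the call. WT sdCAMs held 379, 372 and 257 CPM before and 348, 185 and 217 CPM after LPS (difference -0.25 ± 0.477, adjusted p = 0.785), and Ccr2-/- sdCAMs 130 to 202 CPM before and 168 to 200 CPM after (0.12 ± 0.247, adjusted p = 0.78). Levels in reporter sdCAMs after PBS therefore lay below every WT or Ccr2-/- sdCAM library, a contrast across batches and treatments that was not tested, as was the difference in response. Within Ccr2Cre mice, MG after PBS held 155, 374 and 210 CPM, and sdCAMs were lower by 2.02 (tdT+, SE 0.377, adjusted p = 0.00167) and 1.80 (tdT-, SE 0.375, adjusted p = 0.00473) on the log2 scale.

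Il10ra, the ligand-binding chain for interleukin 10, was the most abundant member per kilobase in MG of every genotype before LPS. MG held 590 to 813 CPM in WT, 637 to 727 CPM in Ccr2-/- and 979 to 1918 CPM in Ccr2Cre mice, the highest being mouse 175. In tdT- sdCAMs it fell after LPS from 382, 364 and 441 CPM to 70.1, 55.8 and 64.3 CPM, by 2.57 ± 0.294 (adjusted p = 1.80e-05, edgeR), and all 15 alternatives kept the call. Other populations were lower after LPS without a call. WT MG held 320 to 498 CPM after LPS (difference -0.74 ± 0.189, adjusted p = 0.0109), Ccr2-/- MG 364 to 510 CPM (-0.62 ± 0.143, adjusted p = 0.00402) and tdT+ sdCAMs 172, 275 and 172 CPM (-0.91 ± 0.279, adjusted p = 0.0402), all within the fold limit. The last of these was called without mouse 5 (-1.18, adjusted p = 0.0108). Ccr2Cre MG held 300 to 369 CPM after LPS, a difference of -1.99 ± 0.406 that did not pass (adjusted p = 0.0758). It was called under 4 of 12 alternatives, DESeq2, no filter, 18 libraries in the fit and omission of mouse 175 (-1.53, adjusted p = 0.0341). WT sdCAMs went from 130, 288 and 397 CPM to 47.5, 74.2 and 73.7 CPM, a difference of -1.85 ± 0.505 that did not pass (adjusted p = 0.0523) and was called under 6 of 15 alternatives. Il10ra was lower in sdCAMs than in MG of WT mice before (-1.36 ± 0.379, adjusted p = 0.0212) and after LPS (-2.54 ± 0.396, adjusted p = 2.71e-04). The former call was lost without the sdCAM library of mouse 9 or the MG library of mouse 14 or 15, with library totals as the scaling (adjusted p = 0.0686) and with the IEG mark as a covariate (-0.88, adjusted p = 0.151). In Ccr2Cre mice after PBS the difference was -1.72 ± 0.332 for tdT+ and -1.74 ± 0.332 for tdT- cells (adjusted p = 0.00214 and 0.00228). In untreated Ccr2-/- mice, with 637 to 727 CPM in MG and 299 to 373 CPM in sdCAMs, the difference passed the test (adjusted p = 9.33e-04) but only just missed the fold limit, and it was called with the mouse as a block (adjusted p = 0.00225) and without any of 4 single libraries, the sdCAM and MG libraries of mouse 1m, the sdCAM library of 3m and the MG library of 5f. After LPS it was -0.96 ± 0.198 in these mice, and was called without the MG library of mouse V1m or V4f or the sdCAM library of V2m.

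Il10rb, the accessory chain that interleukin 10 shares with other cytokines of its family, was a low transcript. It fell in Ccr2-/- sdCAMs from 22.3, 12 and 16.9 CPM to 2.62, 4.09 and 7.74 CPM, by 1.83 on the log2 scale (SE 0.549, adjusted p = 0.0246, edgeR). In tdT- sdCAMs it fell from 25, 35.6 and 31 CPM to 7.44, 3.53 and 14.4 CPM, by 1.79 (SE 0.634, adjusted p = 0.0477). The first of these calls was lost without mouse 1m, 5f, V1m or V2m, and the other under 11 of 15 alternatives, among them the exchange of columns and the omission of any single library but that of mouse 7. Untreated Ccr2-/- sdCAMs held more Il10rb than MG (4.36 to 7.42 CPM), by 1.59 ± 0.465 (adjusted p = 0.0177), which was lost without the sdCAM or MG library of mouse 1m or the MG library of mouse 5f.

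Members were also counted by cell type. sdCAMs differed from MG in 4 of 10 members in untreated WT mice, with 17.1% of all genes called, and in 4 of 10 after CTL with LPS, with 35.4%. In Ccr2-/- mice the counts were 4 of 10 untreated (15%) and 3 of 10 after LPS (18.4%), and in Ccr2Cre mice after PBS 4 of 10 for tdT+ (8.53%) and 2 of 10 for tdT- cells (6.38%). Ebi3 and Il27 were higher in sdCAMs after LPS in WT (4.76 ± 0.542, adjusted p = 2.63e-05, and 3.33 ± 0.735, adjusted p = 0.0024, edgeR) and in Ccr2-/- mice (3.84 ± 0.238, adjusted p = 8.30e-10, and 1.79 ± 0.593, adjusted p = 0.0311). The Il27 call in Ccr2-/- mice was lost without any of its libraries except the MG library of mouse V1m (adjusted p = 0.0552 to 0.143). In WT mice the Il27 and Il10 calls after LPS were lost with a covariate for the IEG mark (adjusted p = 0.557 and 0.284), and that of Il27 with library totals as the scaling (1.56, adjusted p = 0.108). Ebi3 was also higher in untreated Ccr2-/- sdCAMs than in MG (24.9 to 30.7 CPM), by 1.17 ± 0.218 (adjusted p = 4.98e-04). Interactions of cell type and LPS were called for 2 of 10 members in WT (1.32% of all genes) and for 2 of 10 in Ccr2-/- mice (6.88%).

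The tdT state was tested in the 12 reporter sdCAM libraries, with columns as named. After PBS no member differed (0 of 9 with edgeR, 1 at an unadjusted p under 0.05, 0 with DESeq2), where 0.0236% of all genes were called. After LPS, 2 of 9 members were called, against 10.6% of all genes. Il10ra was higher in tdT+ cells, 172, 275 and 172 CPM against 70.1, 55.8 and 64.3 CPM, without overlap, by 1.67 ± 0.286 (adjusted p = 0.00125). Il15 was higher by 2.31 ± 0.684 (adjusted p = 0.0415), likewise without overlap. For Il10ra the LPS response itself differed between tdT states (interaction 1.65 ± 0.395, adjusted p = 0.0226), 1 of 9 members against 5.17% of all genes.

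These differences rested on the assignment of 2 libraries, and a check of sample identity, given below, favoured exchanging their columns. With the conflicting columns exchanged, Il10ra differed by 0.80 (adjusted p = 0.868, edgeR), Il15 by 0.67 (adjusted p = 0.981) and the Il10ra interaction was 0.79 (adjusted p = 1). With both libraries left out, Il10ra still differed by 1.86 (adjusted p = 0.00661) and its interaction was 1.85 (adjusted p = 0.0375), whereas Il15 did not pass (adjusted p = 0.141). The tdT+ cells after LPS were then those of mice 1 and 5. The library of mouse 5 held MG markers at 9661 CPM and Il10ra at 275 CPM. Ccr2Cre MG after LPS held Il10ra at 300 to 369 CPM. The part of MG in the Il10ra difference was not tested. As named, the Il10ra difference was called without any single library. The Il15 call was also lost without any single library other than the tdT- library of mouse 7, and the Il10ra interaction without any single PBS library (adjusted p = 0.0524 to 0.081). The Il15 interaction was called under 2 of 21 alternatives, library totals as the scaling and omission of the tdT- library of mouse 7 (3.17, adjusted p = 0.0369). As named, 2 of 24 mice gave libraries that disagreed in a check of sample identity, and 0 did after the exchange. Ebi3 lay the other way, at 226, 49.3 and 215 CPM in tdT+ and 227, 921 and 301 CPM in tdT- cells, and the difference of -1.59 ± 0.551 did not pass (adjusted p = 0.0811). It was called under 3 of 15 alternatives, DESeq2, no filter and omission of the tdT- library of mouse 1 (-1.88, adjusted p = 0.0406).

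**Figure D4:**
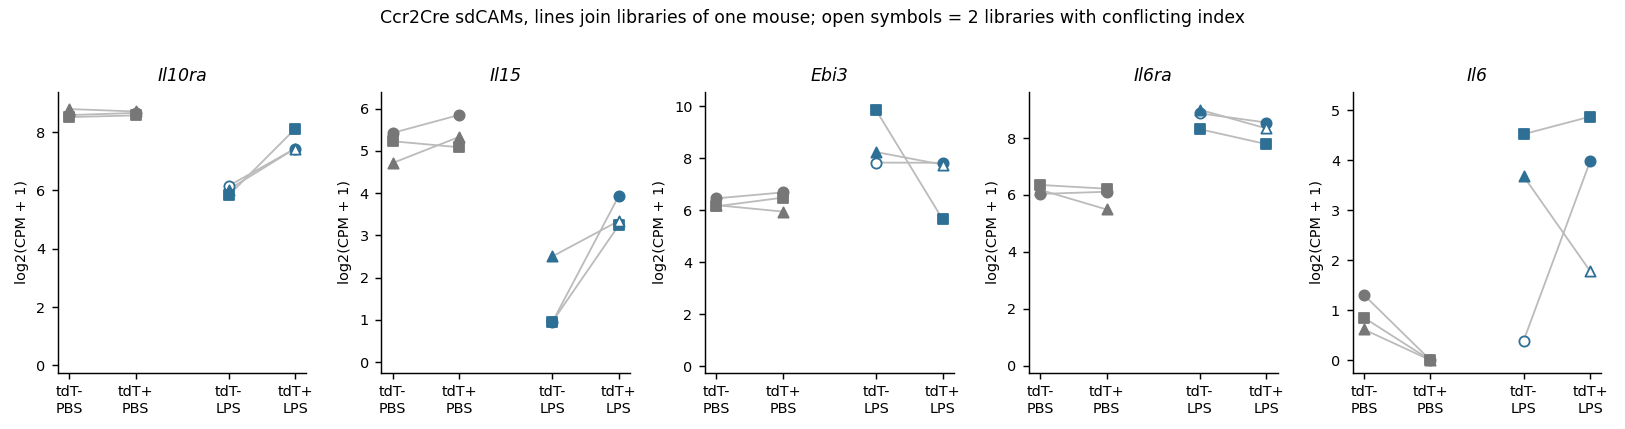
Levels of 5 members in tdT- and tdT+ sdCAMs of Ccr2Cre mice, as log2(CPM + 1), with lines joining libraries of the same mouse. Grey is PBS, blue is LPS, and open symbols are the 2 libraries whose sequencing index disagreed with their name. Il10ra and Il15 lay higher in tdT+ than in tdT- cells after LPS in 3 of 3 mice as named, but with the columns exchanged Il15 was lower in the tdT+ cells of mouse 7 (0.93 against 4.66 CPM) and Il10ra was at 172 and 172 CPM in mouse 1 and at 70.1 and 64.3 CPM in mouse 7. Il6 was at 0 in all 3 tdT+ libraries after PBS. The tdT+ library of mouse 5 after LPS held MG markers at 9661 CPM.

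BLZ945 was compared with CTL, both with LPS, to ask whether levels after LPS differ in repopulated macrophages. WT and Ccr2-/- mice had no group with BLZ945 and PBS, so a shift before LPS and a changed response cannot be told apart. These comparisons share their CTL libraries with the LPS comparisons. No member was called in any of the 4 populations by edgeR or DESeq2, where the shares of all genes called were 0.0763% in WT MG, 0.0173% in Ccr2-/- MG and 0% in sdCAMs of both. At an unadjusted p under 0.05 there were 1 of 9 in WT MG, 0 of 8 in WT sdCAMs, 2 of 9 in Ccr2-/- MG and 1 of 10 in Ccr2-/- sdCAMs. Ebi3 was among them in MG of both genotypes, at 16.9, 34.7 and 23.7 CPM against 8.76 to 18.5 CPM in WT (difference 1.01 ± 0.317, adjusted p = 0.543) and at 44.8, 26.6 and 29.8 CPM against 12.7 to 22.2 CPM in Ccr2-/- mice (0.85 ± 0.255, adjusted p = 0.627). In WT sdCAMs, Il27 lay at 5.42, 6.29 and 23.7 CPM after BLZ945 against 28.9 to 34.4 CPM, a difference of -1.49 ± 0.827 that did not pass (adjusted p = 0.711). The library at 23.7 CPM, of mouse 12, was the only one of the 3 after BLZ945 with the IEG mark, which all 3 CTL libraries carried. Its 10 most abundant genes took 43.6% of the counts, against 13.1% and 12% in the other two.

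Genotype was compared within cell type. WT and Ccr2-/- libraries shared a batch label, but their counts came in separate tables. The paper's methods apply a batch correction to these data, and none was made here. Genotype and any batch between them cannot be told apart in these comparisons. In untreated MG, 2 of 9 members were called, against 5.52% of all genes, and after CTL with LPS 1 of 9, against 8.63%. Il10rb was lower in Ccr2-/- MG in both, at 4.36 to 7.42 CPM against 12.2 to 18.9 CPM untreated (-1.42 ± 0.286, adjusted p = 0.00234, edgeR) and at 3.18, 3.2 and 4.56 CPM against 8.32 to 13.1 CPM after LPS (-1.48 ± 0.29, adjusted p = 0.00121), under all 11 alternatives of each. Il15ra was lower in untreated Ccr2-/- MG, at 9.73, 5.41 and 9.72 CPM against 11.2 to 19.8 CPM (-1.01 ± 0.285, adjusted p = 0.0203), and this was lost without WT mouse 9 or 15 or Ccr2-/- mouse 3m, and fell just under the fold limit with DESeq2 and with median-of-ratios scaling (-0.99 in both). Il6 after LPS, at 28.5, 15.9 and 30.6 CPM in Ccr2-/- MG against 4.38 to 18.5 CPM, differed by 1.18 ± 0.487 (adjusted p = 0.0828). This was called under 2 of 11 alternatives, no filter and omission of WT mouse 1 (1.68, adjusted p = 0.0252). In sdCAMs no member was called untreated with edgeR (0 of 10, 3 at an unadjusted p under 0.05, 2 with DESeq2), where 9.5% of all genes were. Il6ra was called there under 3 of 12 alternatives, DESeq2, a mean of at least 10 counts and omission of WT mouse 15 (-1.23, adjusted p = 0.0388). After LPS 1 of 10 was called, against 21.5%, namely Il10ra, which was higher in Ccr2-/- sdCAMs, at 192, 249 and 225 CPM against 47.5 to 74.2 CPM (1.76 ± 0.393, adjusted p = 0.00693). All 3 of the WT libraries in that comparison carried the IEG mark of the labels and the Ccr2-/- libraries did not, and with the mark as a covariate the difference was 0.96 (adjusted p = 0.323). No interaction of genotype and LPS was called (0 of 9 in MG and 0 of 10 in sdCAMs with edgeR, 2 and 3 at an unadjusted p under 0.05, 0 with DESeq2), as for all genes.

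The other subunits, signal transducers and feedback genes of these axes numbered 22, of which 13 to 20 passed the filter in each LPS comparison. Calls were 5 higher and 1 lower in WT MG, 2 and 0 in WT sdCAMs, 6 and 1 in Ccr2-/- MG, 7 and 2 in Ccr2-/- sdCAMs, and 2 and 0 in each reporter sdCAM population. In Ccr2Cre MG edgeR called 0 of 14, with 3 at an unadjusted p under 0.05 and 3 with DESeq2. Socs3, the inhibitor induced by STAT3 signalling, was called higher in 6 of 7 comparisons, with log2 changes of 2.77 to 6.47 over all 7. In Ccr2-/- sdCAMs it went from 8.37 ± 0.524 to 741 ± 64 CPM (n = 3). Il2rg, the common gamma chain of the interleukin 15 receptor, was called higher in 5 of 7, from 10.4 ± 1.08 to 165 ± 29.5 CPM in Ccr2-/- MG. Stat3 and Bcl3, an IkappaB family member, were each called higher in 3. Il6st, the signalling chain shared by interleukins 6 and 27, fell in MG, from 508 ± 11.1 to 246 ± 64.9 CPM in WT (-1.02 ± 0.194, adjusted p = 0.00229, edgeR) and by 1.37 on the log2 scale in Ccr2-/- mice, and rose in tdT+ sdCAMs by 1.90 ± 0.461 (adjusted p = 0.0127). Il12a and Il23a, the partners of Il12b, passed the filter in 0 of the 7 comparisons.

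Genes whose group means followed a member most closely were ranked by Pearson correlation of log2 means over the 18 groups, as a description. Il15ra was followed most closely by Il18rap (r = 0.975), Fgr and Soat2, Ebi3 by Bst1 (0.952), Id3 and H2-Q7, and Il10ra by Laptm5 (0.978), Tifab and Gatc. Il15 was followed by Gpr137b (0.958), Cltc and Ptpra, Il12b by Plet1 (0.956), Hacd2 and Kif2c, and Il6 by Il1a (0.895), Vasp and Gpr84. For Il10 the closest were Gbp6 (0.932), Ifit3 and Slc28a2, for Il27 Psme2 (0.911), Magohb and Lyset, for Il6ra Mark4 (0.877) and Fbrs, and for Il10rb Crebl2 (0.864), Fnbp1 and Snx32. The groups share mice, depth and treatment, so these values carry no test.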

How the data were processed

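Cells were sorted, cDNA was amplified from picogram amounts of RNA and 50-cycle single reads were sequenced. The authors aligned reads with STAR 2.7.11a and counted them with featureCounts 2.0.8 (versions per the labels; bcl2fastq 2.20 and DESeq2 1.46.0 are listed too). The genome build was given in alternative forms, so no coordinates were taken from it. The authors deposited raw counts of reads for each gene symbol, whole numbers without normalization, in 3 tables of 18 columns, and 0 columns were left unmapped. No molecular identifiers were used, so amplification duplicates stayed in the counts and intervals and floors cover counting error only. Strand use was not stated, so genes overlapping on opposite strands are uncertain.

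Counts were fitted with edgeR 4.0.16 in R 4.3.3 (filterByExpr, TMM, quasi-likelihood F test, two-sided, Benjamini-Hochberg over all genes tested), with one fit per cell type and genotype, all 12 reporter sdCAM libraries together, and 18 libraries for cell type and genotype. SE is the log2 change over the root of F. The procedure was tested on simulated data. Replicates were different mice, and p-values measure the spread between them. The smallest chi-square per degree of freedom between libraries of a group was 7.76, so none was a duplicate. Libraries named with the same number were taken as from the same mouse, which the identity check contradicted for 2 of 24 mice as named and for 0 with 2 columns exchanged. Their deviations correlated at -0.1 to 0.301 over 36 pairs as named and at -0.261 to 0.378 exchanged, where tdT+ against tdT- cells went from 0.123 to 0.378 in mouse 1 and from 0.0737 to 0.355 in mouse 7.

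The alternatives tried comprised a fit with DESeq2 1.42.0, median-of-ratios scaling in edgeR, no filter, a mean of at least 10 counts, omission of each library, the mouse as a block, the exchange or omission of 2 columns, the IEG mark (unexplained in the labels, on 6 WT sdCAM libraries) and other sets of libraries. Library totals without TMM factors, and the exchange together with the block, were chosen after seeing the data. For Ccr2-/- mice given LPS, library titles named the other cell type than the cell type label, which was used. All 10 members were named throughout, other axis genes when called in at least 3 of 7 LPS comparisons, and the 3 most alike genes per member (1 of them is not reported here), among genes with at least 1 CPM in 9 libraries or a mean of 5. Members, lists and motifs were chosen with earlier results of these data known.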

Additional observations from a re-analysis of the deposited data

Results flagged for a closer look

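The LPS response of 3 members differed between sdCAMs and MG, by a test of the difference itself. Ebi3 responded more in sdCAMs by 4.03 in WT and by 2.66 in Ccr2-/- mice on the log2 scale (edgeR, adjusted p = 0.0067 and 1.42e-05), and Il6 by 3.74 in Ccr2-/- mice (adjusted p = 0.0133). For Il27 in WT mice the fitted difference was 7.77 (adjusted p = 0.00506). It rests on 1 count in 3 untreated sdCAM libraries, so its size depends on the prior count and is no bound.

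The check of sample identity disagreed for 2 of 24 mice as named and for 0 with the conflicting columns exchanged. As named, the LPS response of Il10ra differed between tdT+ and tdT- sdCAMs by 1.65 (edgeR, adjusted p = 0.0226). It was 0.79 (adjusted p = 1) with the conflicting columns exchanged.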

How the results depend on the processing

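Of the counts of members called per comparison under each alternative, 333 lay within 1.5 times the main count and 55 did not. Of the 804 values of single called members under alternatives, 691 kept their call, 113 kept the direction only and 0 reversed. In LPS comparisons, WT MG went from 3 members to 1 with 18 libraries in the fit, and WT sdCAMs from 3 to 6 with DESeq2, 5 with library totals, 6 without a filter, 5 with 6 libraries and 7 with 18. Between tdT states after LPS, 2 became 1 with median-of-ratios scaling, 0 with the exchange, 1 without both libraries and 0 with the exchange and the mouse as a block, and the interaction went from 1 to 3 with library totals, 2 without a filter, and 0 with the exchange, with or without the block. For cell type in WT mice, 4 untreated became 2 with the IEG mark as covariate, 4 after LPS became 7 with library totals and 2 with the mark, and the interaction went from 2 to 4 with DESeq2 and with library totals. For genotype in MG, 2 untreated became 1 with median-of-ratios scaling, 1 after LPS became 3 without a filter, and the interaction went from 0 to 1 without a filter, as did BLZ945 in WT MG. In untreated sdCAMs, 0 became 2 with DESeq2, 1 without a filter, 1 with a mean of 10 counts and 2 with the mark, and after LPS 1 became 3 with library totals and 0 with the mark. The causes were not tested. Leaving out single libraries gave ranges of 0 to 3 for LPS in Ccr2Cre MG, 1 to 2 between tdT states after LPS, 0 to 2 for their interaction, 1 to 4 for cell type in untreated WT mice, 1 to 4 for cell type after LPS in Ccr2-/- mice, 1 to 2 for genotype in untreated MG and after LPS, and 0 to 1 in untreated sdCAMs. Library totals shifted the median of all genes by -1.47 in the LPS comparison of WT sdCAMs, -0.778 in tdT- sdCAMs, 1.01 between tdT states after LPS and -1.8 between cell types in WT mice after LPS, whereas median-of-ratios scaling shifted it by at most 0.279 in size.

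With the mouse as a replicate block, paired comparisons kept their counts, except 4 to 5 in untreated Ccr2-/- mice and 4 to 3 for tdT+ against MG, and changed no other call as named. LPS, BLZ945 and genotype were compared between mice, so no block applied. Members at 0 to 3 counts, such as Il10 in MG, are at the limit of this depth, and the absence of a call there does not show that they did not change.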
